A study of Rattus norvegicus with 74 samples.

Results

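The difference in training response between heart and skeletal muscle was examined in 14 rats that gave RNA from both tissues. Members were the libraries of the left ventricle wall (LV) and of the red inner gastrocnemius (SM) that carry the same rat number, 28 libraries of the 74 in the series. The rats were male wild-type Wistar Kyoto animals aged 9 weeks. The exercise-trained group (ExT) started treadmill running when 5 weeks old and ran for 4 weeks, on 5 days a week, reaching 60 min sessions at 20 m/min after a first week at 15 m/min. Sedentary controls (Sed) were put on a switched-off treadmill, and all rats drank water with deuterium oxide and were housed in pairs. Sampling was 24 h after the end of training. Each of LV_Sed, LV_ExT, SM_Sed and SM_ExT held 7 libraries, and the same 7 rats gave both tissues in each arm. The quantity described is an interaction: trained minus sedentary in LV, minus trained minus sedentary in SM, on the log2 scale. A positive value means that the trained rats stood higher, relative to the sedentary rats, in heart than in muscle. It does not say in which tissue the training difference lies, so both tissue effects are given beside it.

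Heart and red gastrocnemius are both oxidative striated muscles, but they are loaded differently by running. Limb muscle does not contract continuously, whereas the ventricle contracts without pause and works harder during a running bout. Endurance training is known to raise mitochondrial content and capillary supply in limb muscle, with the coactivator encoded by Ppargc1a as a central regulator. In the ventricle it is known for growth of cardiomyocytes, with less remodelling of an already high mitochondrial content. Contrasting both tissues of one animal asks which transcripts follow training in one tissue and not in the other.

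Total counts ranged from 54645657 to 75758777 in LV and from 20876971 to 34339726 in SM, so that 3 counts, taken as the smallest amount a library can show, correspond to 0.0396 to 0.144 CPM, the usual depth-scaled count. The summed level of 8 cardiomyocyte genes was 25209 to 35952 CPM in LV and 22.9 to 70.0 CPM in SM, where the heart transcription factor Nkx2-5 was at 0 in all libraries. The summed level of 7 skeletal myofibre genes was 66842 to 122007 CPM in SM and 1239 to 1879 CPM in LV. Some LV libraries stood out in sums of genes known from other tissue. A sum of 8 liver genes reached 1400 CPM in LV_Sed rat 20, 47.1 CPM in LV_Sed rat 16 and 32.2 CPM in LV_ExT rat 17, against at most 5.58 CPM in the other 11 LV libraries. A sum of 6 atrial genes reached 1750 CPM in LV_ExT rat 26, 560 CPM in LV_Sed rat 19 and 439 CPM in LV_ExT rat 18, against 33.6 to 151 CPM in the other 11 LV libraries. The 6 include Nppa, the atrial natriuretic peptide, which is also among the 8 cardiomyocyte genes. Myl7, an atrial myosin light chain among the 6, was at 600 CPM in LV_ExT rat 26 and 184 CPM in LV_Sed rat 19. It was at most 12.8 CPM in the other trained hearts, rat 18 included. What the sum of rat 18 reflects was not tested. The LV libraries were made from 100 ng of RNA with an Illumina Ribo-Zero kit and the SM libraries from 50 ng with a Zymo RiboFree kit. That difference is the same in both arms, so it drops out of the interaction only as far as it acts alike on trained and sedentary samples, and for levels tissue and kit cannot be told apart. In whole tissue, fewer cells of a type and less RNA per cell cannot be told apart.

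No gene passed the test for a different training response in heart and muscle. With edgeR's quasi-likelihood test and Benjamini-Hochberg adjustment over the 15049 genes tested, 0 genes (0%) had an adjusted p under 0.05, and the smallest adjusted p was 0.808. At an unadjusted p under 0.05 there were 687 genes (4.57%), of which 408 (2.71%) had a higher and 279 (1.85%) a lower training difference in LV. That split depended on the scaling: with library totals alone, which moved the median of all genes from 0.01 to -0.05, 153 were higher and 427 lower. An exact permutation test of each rat's own LV-minus-SM difference, over all 3432 splits of the 14 rats, gave 627 genes (4.17%) at an unadjusted p under 0.05 and 0 (0%) after adjustment. DESeq2 gave 1 gene, an unnamed long non-coding RNA, limma-voom gave 0, and without rats 16, 17 and 20 edgeR gave 1 gene, Hoxa7. Rat 14 and rat 16 are the only ones numbered under 17, 1 in each arm, and among rats 17 to 32 only, 0 genes passed.

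The median standard error (SE) of the interaction was 0.15 on the log2 scale. For 11979 genes (79.6%) the 95% interval lay within a doubling or halving of the trained-to-sedentary ratio between the tissues. Among the 7045 genes with a mean of at least 10 CPM, this held for 97.3%, and for 86.6% the interval lay within 0.5 on the log2 scale. For genes near the detection limit, large differences remain possible.

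Neither tissue alone showed a wide training response in these rats. In LV, edgeR called 0 of 15049 genes (0%), with 618 (4.11%) at an unadjusted p under 0.05, 384 higher (2.55%) and 234 lower (1.55%) in trained rats, and a smallest adjusted p of 0.0934. In SM it called 1 gene (0.00664%), Apobec2, with 1418 (9.42%) at an unadjusted p under 0.05, 632 higher (4.2%) and 786 lower (5.22%), which became 1255 higher and 376 lower with library totals alone. Across genes, which are not independent replicates, both tissues' training differences had a Pearson r of 0.03 and a Spearman rho of 0.16 over the 15049 genes, and 0.09 and 0.28 over the 7045 genes of at least 10 CPM. Both tissues came from the same 14 rats. Of the 687 genes named above, 502 (73.1%) had the larger difference in SM, against 59.4% of all genes tested. These genes were chosen by the gap between the tissues. Over all genes the differences spread more widely in SM, with quartiles of -0.10 and 0.10, against -0.07 and 0.07 in LV. The share is therefore no support for a larger response in muscle.

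**Figure D1:**
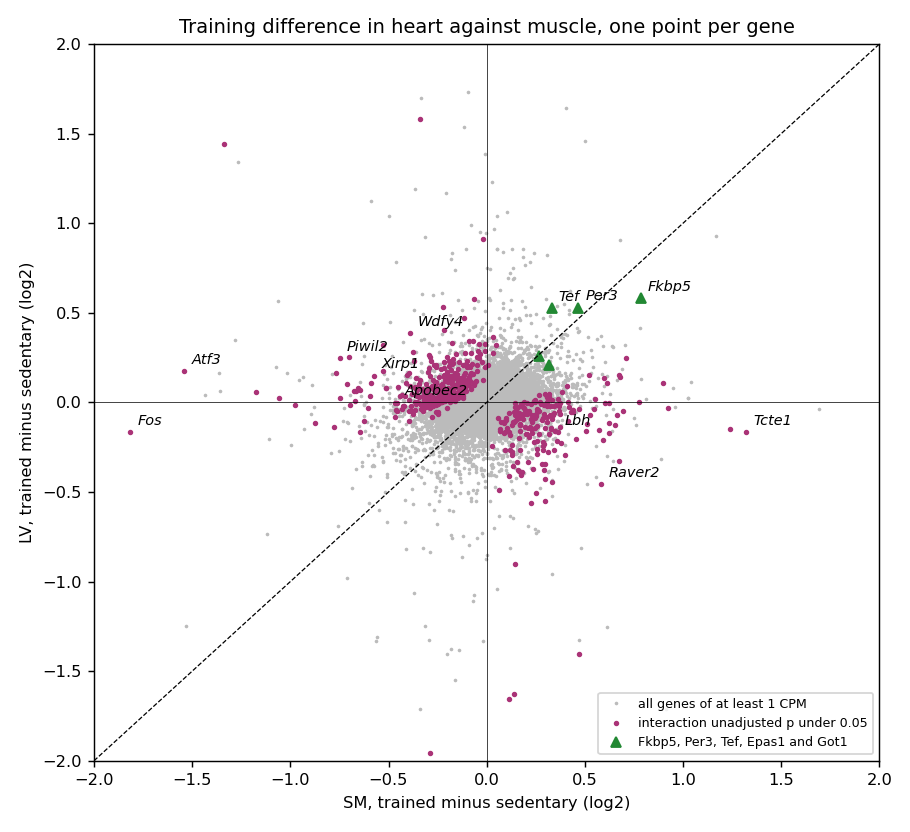
Training difference (trained minus sedentary, log2) in SM on the horizontal axis and in LV on the vertical axis for the 12383 genes with a mean of at least 1 CPM. Each point is 1 gene, purple points have an unadjusted interaction p under 0.05, triangles mark the 5 genes named in the legend, the dashed line marks equal differences, and 29 genes lie outside the axes. Tcte1 lies far to the right at 1.32 in SM and Fos and Atf3 far to the left, all near 0 in LV, while Fkbp5, Per3 and Tef lie near the dashed line.

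Apobec2, a member of the cytidine deaminase family known for its high expression in skeletal and cardiac muscle, was the only gene that passed in either tissue. In SM_Sed it ranged from 193 CPM to 289 CPM with a median of 247 CPM, and in SM_ExT from 156 CPM to 191 CPM with a median of 172 CPM. All 7 trained muscles lay below all 7 sedentary muscles, which 12 of 15049 genes (0.0797%) showed in either direction. It fell by 0.45 on the log2 scale in SM (SE 0.075, edgeR adjusted p = 0.0159). In LV it ranged from 88.2 CPM to 103 CPM in sedentary rats and from 85.4 CPM to 113 CPM in trained rats, and the ranges overlapped almost fully, with a difference of -0.00 and a 95% interval of -0.15 to 0.15. The interaction was 0.45 with a 95% interval of 0.24 to 0.67, the smallest p among the genes with a positive value that the naming rule allows, and an edgeR adjusted p of 0.889. The call in SM was lost when any 1 of rats 19, 25, 26, 27, 31 or 32 was left out, and with all 30 SM libraries of the series.

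The other genes named for a higher training difference in LV did not pass the test either. Xirp1 encodes an actin-binding protein of the intercalated disc that is also known from regenerating muscle fibres. It ranged from 278 to 690 CPM in SM_Sed (median 452) and from 244 to 381 CPM in SM_ExT (median 303), whereas LV held 191 to 248 CPM in sedentary and 210 to 273 CPM in trained rats. The sedentary muscles spread widely and overlapped the trained ones. Its interaction was 0.72 (95% interval 0.32 to 1.12, exact permutation p = 0.0111 before adjustment). Wdfy4, known for antigen cross-presentation in dendritic cells, was at 6.05 to 7.31 CPM in LV_Sed and 6.55 to 12.3 CPM in LV_ExT, and at 2.22 to 4.97 CPM in SM_Sed and 1.71 to 3.73 CPM in SM_ExT. Trained hearts tended to stand above and trained muscles below their sedentary counterparts, with overlap in both tissues, and the interaction was 0.78 (95% interval 0.35 to 1.21). The summed level of 10 leukocyte markers was 85.2 to 157 CPM in LV_Sed, 97.3 to 147 CPM in LV_ExT, 61.9 to 94.3 CPM in SM_Sed and 63.1 to 86.1 CPM in SM_ExT, and none of the 10 was at 0 in all libraries of a group. Its part in the Wdfy4 values was not tested.

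Asah2, the neutral ceramidase, also pointed in opposite directions in the tissues. It was at 5.80 to 7.89 CPM in LV_Sed, 6.55 to 9.57 CPM in LV_ExT, 6.73 to 9.12 CPM in SM_Sed and 5.78 to 7.27 CPM in SM_ExT. All of these ranges overlapped, and the interaction was 0.44 (95% interval 0.18 to 0.70). Nfya, a subunit of the CCAAT-binding factor NF-Y, had an interaction of 0.36 (SE 0.105), Nudt2, a hydrolase of diadenosine tetraphosphate, 0.36 (SE 0.107), and RGD1565784, whose product is not characterised, 0.33 (SE 0.0989). In these 3 genes the SM difference was the larger of the pair, at -0.26, -0.27 and -0.21, against 0.11, 0.10 and 0.12 in LV. Dmrt2, a transcription factor known from the somite and from myogenic cells, entered by its p-value but had 0 counts in all LV_Sed libraries and at most 4 in LV_ExT, so no fold is given. In SM it was at 16.9 to 21.1 CPM in sedentary and 18.8 to 26.1 CPM in trained rats.

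Among genes with a lower training difference in LV, Nt5e had the smallest p-value that the naming rule allows. It encodes the surface enzyme that makes adenosine from AMP. It was at 32.2 to 44.1 CPM in LV_Sed (median 34.5) and 29.1 to 33.4 CPM in LV_ExT (median 30.5), and at 5.71 to 7.31 CPM in SM_Sed (median 6.67) and 6.79 to 9.08 CPM in SM_ExT (median 7.47). Within each tissue the arms overlapped. The LV-minus-SM difference of each rat, on the log2(CPM + 0.5) scale, was 2.19 to 2.57 in sedentary rats, with a mean of 2.33 ± 0.15 (SD, n = 7), and 1.69 to 2.19 in trained rats, with a mean of 1.94 ± 0.17 (SD, n = 7). The arms did not overlap on this measure, by a margin below the precision printed, which held for 6 of 15049 genes (0.0399%), and the exact permutation p of 0.000583 is the smallest that 3432 splits can give. The edgeR interaction was -0.41 (95% interval -0.61 to -0.21, adjusted p = 0.889). Its LV_Sed maximum was in rat 20, the library with the most liver transcripts.

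Ntf3, the neurotrophin that supports proprioceptive nerve fibres, was another gene whose rats did not overlap. Its per-rat difference was 0.231 to 1.07 in sedentary and -0.35 to 0.227 in trained rats. The level was low, at 0.671 to 1.28 CPM in SM_Sed and 1.24 to 2.05 CPM in SM_ExT, with 1.35 to 2.35 CPM and 1.05 to 1.81 CPM in the sedentary and trained hearts. The interaction was -0.78 (95% interval -1.24 to -0.31). Gfra2, the receptor of the neurotrophic factor neurturin, was at 2.54 to 4.39 CPM in LV_Sed and 1.70 to 3.66 CPM in LV_ExT, and at 2.78 to 5.21 CPM in SM_Sed and 4.66 to 6.60 CPM in SM_ExT, with an interaction of -0.78 (95% interval -1.25 to -0.30). Here LV gave the larger part, at -0.45, against 0.33 in SM. The summed level of 7 Schwann cell and nerve markers was 34.7 to 48.4 CPM in LV_Sed, 31.1 to 53.4 CPM in LV_ExT, 36.1 to 180 CPM in SM_Sed and 53.6 to 199 CPM in SM_ExT. None of the 7 was at 0 in all libraries of a group, and their part in the Ntf3 and Gfra2 values was not tested.

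Tcte1, which encodes a component of the dynein regulatory complex of motile cilia, was separated by arm in muscle. It was at 1.15 to 2.93 CPM in SM_Sed (median 2.06) and 4.35 to 5.86 CPM in SM_ExT (median 4.76), and all 7 trained muscles lay above all 7 sedentary ones. In LV it was at 0.241 to 0.767 CPM in sedentary and 0.160 to 0.928 CPM in trained rats, and the arms overlapped fully. The SM difference was 1.32 (SE 0.272, edgeR adjusted p = 0.126) and the LV difference was -0.17 (SE 0.299), for an interaction of -1.49 (95% interval -2.31 to -0.66, adjusted p = 1). Fitted on SM alone, Tcte1 and not Apobec2 passed. Tcte1 also passed in SM with all 30 SM libraries (1.68, edgeR adjusted p = 1.5e-05), with limma-voom (adjusted p = 0.00839) and with DESeq2 (adjusted p = 0.00365). Raver2, an RNA-binding protein, likewise did not overlap between arms in SM, at 2.92 to 3.96 CPM and 4.77 to 6.75 CPM. In LV it was at 0.524 to 1.28 CPM and 0.310 to 1.07 CPM, and the interaction was -1.04 (95% interval -1.65 to -0.43).

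The remaining named genes of this direction were Lbh, Fbxw9 and Hid1. Lbh, a transcriptional cofactor named for limb bud and heart, was at 44.9 to 63.3 CPM in LV_Sed and 37.6 to 54.6 CPM in LV_ExT, and at 4.71 to 6.35 CPM in SM_Sed and 6.03 to 8.36 CPM in SM_ExT. Both tissues' arms overlapped, with differences of -0.17 in LV and 0.36 in SM, and the interaction was -0.53 (95% interval -0.79 to -0.27). Fbxw9, an F-box protein, had differences of -0.33 in LV and 0.67 in SM at a mean of 1.05 CPM. Hid1, a protein of secretory granule formation, had an interaction of -0.34. All 16 genes chosen by p-value kept the sign of the fitted interaction in each alternative fit that tested them, no interaction passed in any, and the lowest adjusted p over the fits was 0.159. These fits reuse all or most of the libraries by which the genes were chosen, so the kept sign is no support. The size moved over the fits, from 0.18 to 0.98 for Xirp1 and from -1.17 to -0.33 for Fbxw9.

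**Figure D2:**
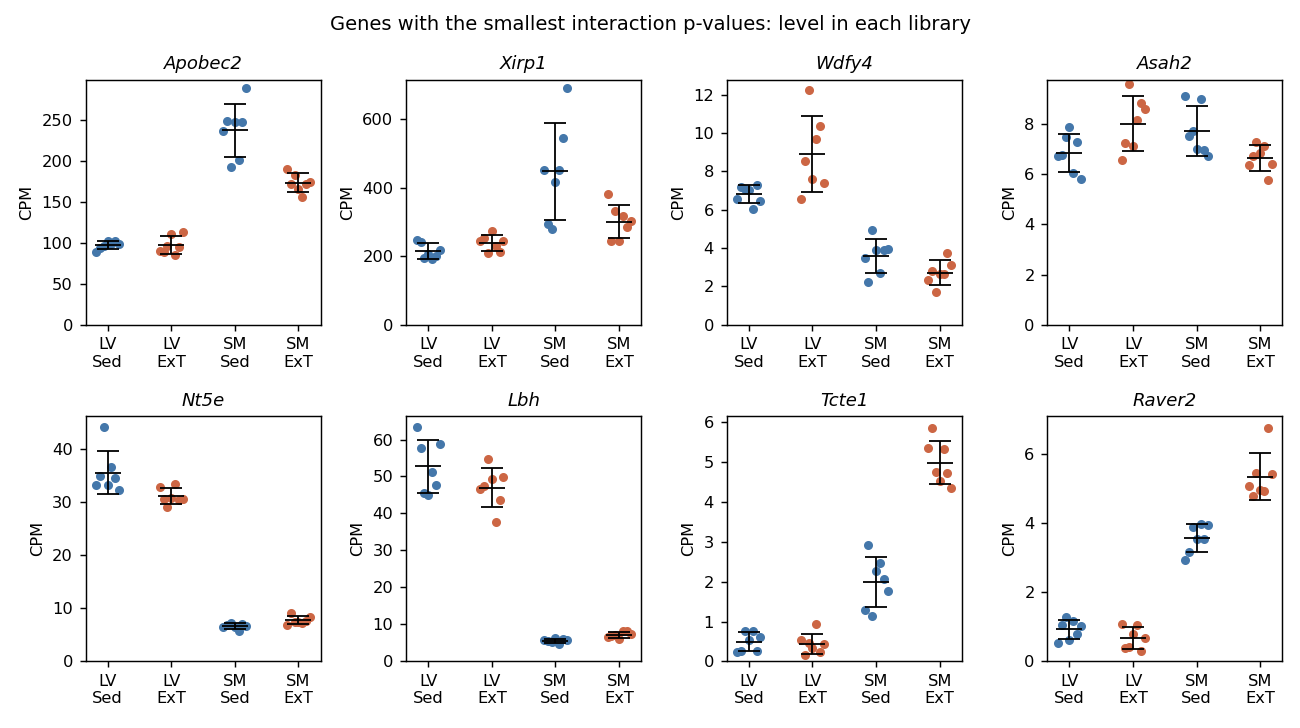
Level in CPM of 8 of the genes with the smallest interaction p-values, 1 panel per gene, with 1 point per library, blue for sedentary and orange for trained rats, and black bars for the mean and SD of 7 libraries. SM points of Apobec2, Tcte1 and Raver2 do not overlap between arms, and all other pairs of arms overlap within a tissue.

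Other genes whose per-rat differences did not overlap between arms, chosen after their values were seen, included Rit1 and Ttc21a. Rit1, a small GTPase of the Ras family, combined a small difference with little spread: 0.91 to 1.06 in sedentary and 1.08 to 1.21 in trained rats, an interaction of 0.17 (95% interval 0.04 to 0.31). Ttc21a, a ciliary transport protein, was at a mean of 0.260 CPM. Within LV alone, 8 of 15049 genes (0.0532%) had arms that did not overlap.

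Regulators of mitochondrial biogenesis had small interactions with narrow intervals. All 25 genes of the list were tested, and 0 passed after adjustment. At an unadjusted p under 0.05, 1 had a higher and 0 a lower training difference in LV, beside 2.71% and 1.85% of all genes. The median interaction was 0.03, against 0.01 over all genes, and -0.04 with library totals alone. All 25 intervals lay within 1 on the log2 scale. Ppargc1a, named for its role and not by the rule, was at 24.0 to 32.0 CPM in LV_Sed and 24.3 to 38.8 CPM in LV_ExT, and at 29.8 to 36.8 CPM in SM_Sed and 31.3 to 42.8 CPM in SM_ExT. Its difference was 0.12 in LV and 0.13 in SM, with overlapping arms in both, and the interaction was -0.01 (95% interval -0.24 to 0.23). Of the most abundant members, Perm1, a muscle regulator induced by that coactivator, had an interaction of 0.06, Prkaa2, a catalytic subunit of AMP-activated kinase, 0.03, Tfb2m, a mitochondrial transcription factor, 0.17, and Ppargc1b 0.22.

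Nuclear genes of oxidative phosphorylation had a negative median in muscle and a positive one in heart, and both signs of the interaction occurred across the muscles used. Of 73 gene rows, 0 passed after adjustment in any contrast. In SM, 17 had an unadjusted p under 0.05 with a lower and 1 with a higher level in trained rats, beside 5.22% and 4.2% of all genes, with a median of -0.09. In LV, 0 had a lower and 1 a higher level, beside 1.55% and 2.55%, with a median of 0.03. The interaction median was 0.12, with 9 higher and 1 lower, beside 2.71% and 1.85%. Single rats moved these counts. The interaction had 1 higher without rat 20, 25 or 27. Over all genes these fits gave 534 of 15122, 504 of 15116 and 525 of 15135 in either direction. Without rat 14 the interaction had 30 higher. SM had 11 lower without rat 26, beside 1211 of 15113 genes in either direction, and 29 without rat 14. Over all genes, the fit without rat 14 gave 1062 of 15119 at an unadjusted p under 0.05 for the interaction and 1619 in SM. With library totals alone the interaction median was 0.06, with 4 higher. With all 30 SM libraries the SM median was 0.08, with 14 higher and 0 lower, and the interaction median was -0.05, so the sign depended on which muscles entered. In that fit 2330 of 14773 genes had an unadjusted p under 0.05 in SM in either direction. With rats 17 to 32 only the interaction median was 0.22, with 32 higher and 0 lower, beside 1146 of 15063 genes in either direction. The most abundant members were near 0: Atp5f1b and Atp5f1a, subunits of ATP synthase, had interactions of 0.02 and -0.03, Sdha of complex II 0.08 and Uqcrc1 of complex III -0.02. Cox7a1, the muscle isoform of a cytochrome oxidase subunit, went against the list. It was at 2.11 to 4.27 CPM in SM_Sed and 3.95 to 6.63 CPM in SM_ExT, a difference of 0.60, with -0.01 in LV and an interaction of -0.61 (95% interval -1.03 to -0.18). Uqcrb, a small subunit of complex III, had the highest interaction of the list at 0.40. Cox7a1 and Uqcrb were chosen after their values were seen. With all 30 SM libraries Cox7a1 passed in SM (0.75, edgeR adjusted p = 0.00398).

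The 13 mRNAs of the mitochondrial genome had no member past the test. The interaction was above 0 for 12 of 13, with a median of 0.28, and 0 had an unadjusted p under 0.05 in either direction. It was 0.16 for Mt-co1, 0.27 for Mt-co3, 0.31 for Mt-atp6 and 0.57 for Mt-nd4, whose interval was -0.07 to 1.21. Their levels differed between the tissues to unlike degrees. The mean LV-minus-SM difference of sedentary rats, in log2(CPM + 0.5), was 0.27, -0.10, -2.69 and -4.95 in the same order. For these levels, too, kit and tissue cannot be told apart. The interaction median of the 13 was 0.02 with all 30 SM libraries. With rats 17 to 32 only it was 0.44, and 6 of 13 had an unadjusted p under 0.05, beside 1146 of 15063 genes. Without rat 14 it was 0.47 with 9, beside 1062 of 15119 genes. The share of all counts that fell on the 37 genes of the mitochondrial genome, ribosomal RNAs included, was 45.6% ± 2.65 in LV_Sed, 43.8% ± 2.83 in LV_ExT, 32.1% ± 2.95 in SM_Sed and 31.2% ± 3.57 in SM_ExT (SD, n = 7 each). With the ribosomal RNAs included, each rat had a higher share in heart than in muscle, by 8.60 to 18.9 percentage points in sedentary and 7.07 to 18.3 points in trained rats. The mean of this gap was 0.963 points lower in trained rats, which two-sided exact permutation did not separate from 0 (p = 0.670). Without the mitochondrial ribosomal RNAs the gap itself was no longer one-sided. The share was then higher in heart in 10 of 14 rats, with gaps of -2.35 to 1.53 points in sedentary and -4.24 to 3.10 points in trained rats. The difference between the arms had the opposite sign, at 0.776 points (exact permutation p = 0.467). The rRNA depletion kits of LV and SM differ, so for this level kit and tissue cannot be told apart.

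**Figure D3:**
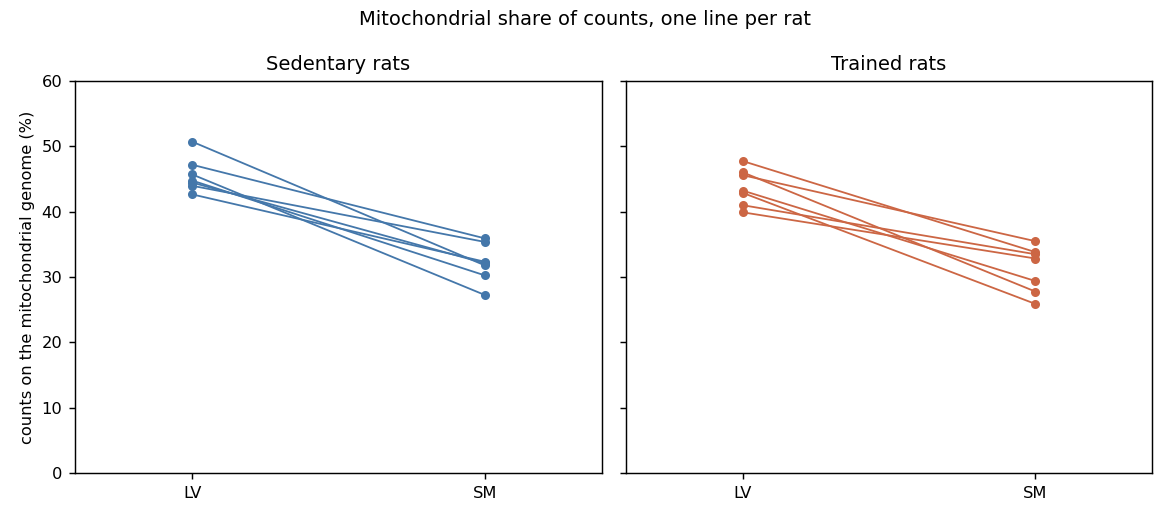
Percent of counts on the mitochondrial genome, its ribosomal RNAs included, in LV and SM, 1 line per rat, sedentary rats on the left and trained rats on the right. All 14 lines run downward from LV to SM, and the gap of 13.5 points in sedentary and 12.5 points in trained rats differs by less than the spread between rats. Without the ribosomal RNAs the share is higher in LV in 10 of 14 rats.

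In the fit of the 14 rats, genes of fuel metabolism had interaction medians of -0.03 to 0.10. Of 30 genes of the TCA cycle and pyruvate entry, 29 had a difference above 0 in LV, with a median of 0.08 and 4 higher at an unadjusted p under 0.05, beside 2.55% of all genes. In SM the median was 0.01, with 3 higher, beside 4.2%, and the interaction median was 0.10 with 0 in either direction. That median was 0.04 with library totals alone and -0.02 with all 30 SM libraries. Without rat 14 the interaction had 5 higher and LV 9, beside 1062 and 826 of 15119 genes in either direction. LV had 1 higher without rat 17, 20 or 30, beside 469 of 15137, 460 of 15122 and 434 of 15108 genes in either direction. Ogdh, of the oxoglutarate dehydrogenase complex, had the largest LV difference of the list, chosen after its values were seen. It was at 184 to 310 CPM in LV_Sed and 244 to 474 CPM in LV_ExT, a difference of 0.44 (SE 0.128), against 0.13 in SM, with overlapping arms in both tissues and an interaction of 0.31 (95% interval -0.06 to 0.68). The abundant cycle enzymes Idh2 and Mdh1 had interactions of 0.14 and 0.08, and the aminotransferase Got2 -0.13. For 40 genes of fatty acid uptake and oxidation the interaction median was 0.05, with 0 at an unadjusted p under 0.05. With all 30 SM libraries it was -0.12, with 34 of 40 below 0 and 2 lower. In SM 24 were then higher, with a median of 0.20, beside 2330 of 14773 genes in either direction. With library totals alone the interaction median was -0.01. Lpl, the lipoprotein lipase, had 0.04, Fabp3, the heart fatty acid binding protein, 0.08, Hadhb of the trifunctional protein 0.07 and Acadm, the medium-chain dehydrogenase, 0.13. For 10 genes of ketone and lactate handling the interaction median was -0.03, again with 0. With all 30 SM libraries it was -0.13, with 8 of 10 below 0 and 1 higher, and 6 were higher and 1 lower in SM. With library totals alone it was -0.08 with 1 lower. For 34 gene rows of glycolysis and glycogen the interaction median was 0.07, with 0 higher and 1 lower, beside 2.71% and 1.85% of all genes. In SM 5 were higher and 2 lower, beside 4.2% and 5.22%. With library totals alone the interaction median was 0.00. With all 30 SM libraries it was 0.17, with 22 of 34 above 0. The SM median was then -0.09, with 3 genes past adjustment in SM, beside 97 of all 14773 genes. In the fit of the 14 rats, Gapdh and Pfkm had interactions of 0.25 and 0.02.

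Cytosolic ribosomal protein genes had a negative median in muscle and a median near 0 in heart. These short, highly expressed genes encode the protein part of the cytoplasmic ribosome. In SM, 37 of 72 gene rows had an unadjusted p under 0.05 with a lower level in trained rats and 0 with a higher one, beside 5.22% and 4.2% of all genes, and the median was -0.18. In LV, 0 of 72 did in either direction, and the median was -0.01. For the interaction, 16 of 72 were higher and 0 lower, beside 2.71% and 1.85%, 68 were above 0, and the median was 0.17. None passed after adjustment, and ribosomal protein genes share reads with pseudogenes, so single members are uncertain. The interaction median was 0.11 with library totals alone, where 5 were higher, 0.09 with all 30 SM libraries, where 0 had an unadjusted p under 0.05, and 0.21 with rats 17 to 32 only. Leaving out 1 rat at a time gave medians of 0.10 to 0.22. The interaction had 4 higher without rat 25, beside 504 of 15116 genes in either direction. It had 23 higher without rat 14 or 17, beside 1062 of 15119 and 782 of 15137. In SM 24 were lower without rat 20, beside 1095 of 15122, and 42 without rat 17, beside 1681 of 15137. Rpl11, chosen after its values were seen, was at 98.2 to 132 CPM in SM_Sed and 84.5 to 104 CPM in SM_ExT, and at 104 to 117 CPM in LV_Sed and 99.3 to 130 CPM in LV_ExT. Its SM arms overlapped at the edge and its LV arms fully, and its interaction was 0.32 (95% interval 0.12 to 0.52). For the 4 most abundant members the interaction was 0.03 for Rplp0, 0.03 for Rpl4, 0.13 for Rpsa and 0.14 for Rpl5.

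Immediate early genes, most of them transcription factors induced within minutes of a stimulus, had the widest ranges in sedentary muscle for the members shown here. In SM, 9 of 25 had an unadjusted p under 0.05 with a lower level in trained rats and 0 with a higher one, beside 5.22% and 4.2% of all genes, with a median of -0.26. In LV there were 0 in either direction and the median was 0.02. The interaction median was 0.27, with 4 higher and 0 lower, beside 2.71% and 1.85%. It was 0.39 with 7 higher without rats 16, 17, 19, 20 and 26, beside 518 of 15203 genes in either direction. With library totals alone it was 0.23 with 2 higher, beside 580 of 15049. With rats 17 to 32 only it was 0.20 with 1 higher, beside 1146 of 15063. In that fit 4 were lower in SM, beside 1580 of 15063. Leaving out 1 rat gave 1 higher without rat 14 or 32, beside 1062 of 15119 and 669 of 15125 genes in either direction. It gave 7 higher without rat 20, beside 534 of 15122. In SM 4 were lower without rat 16, beside 1526 of 15143 genes in either direction. There 13 were lower without rat 19, 20 or 30, beside 1496 of 15134, 1095 of 15122 and 1557 of 15108. Fos was at 5.46 CPM to 63.9 CPM in SM_Sed (median 14.8) and 4.30 CPM to 13.8 CPM in SM_ExT (median 7.91). In LV it was at 1.32 to 3.63 CPM in sedentary and 0.558 to 5.71 CPM in trained rats. Of the 7 sedentary muscles, 4 stood above all trained ones and the other 3 lay among them, and the interaction was 1.65 (95% interval 0.10 to 3.20). Atf3, a stress-induced factor, was at 5.26 to 56.9 CPM in SM_Sed and 4.01 to 15.0 CPM in SM_ExT, with 1.82 to 4.01 CPM and 2.30 to 4.21 CPM in the hearts, and an interaction of 1.71. Egr1 had 0.72 and Nr4a3 0.90. These 4 were chosen after their values were seen, and the exact permutation p for Fos was 0.117 before adjustment. Of the most abundant members, Jun had an interaction of 0.21, Jund 0.22, Klf6 -0.09 and Nr4a1 0.09.

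Heat shock proteins, chaperones that help other proteins fold, had medians of opposite sign in heart and muscle. In LV, 4 of 23 had an unadjusted p under 0.05 with a higher and 0 with a lower level, beside 2.55% and 1.55% of all genes, with a median of 0.07. In SM it was 0 higher and 5 lower, beside 4.2% and 5.22%, with a median of -0.04, which was 0.02 with library totals alone and 0.04 with all 30 SM libraries. The interaction median was 0.16, with 3 higher and 0 lower, beside 2.71% and 1.85%, and 0.03 with 0 higher with all 30 SM libraries. It had 1 higher without rat 25, 26 or 28 and 7 without rat 14. Dnajb4, a co-chaperone of the heat shock protein family that was chosen after its values were seen, was at 7.62 to 10.9 CPM in LV_Sed and 9.53 to 14.4 CPM in LV_ExT, and at 28.5 to 35.2 CPM in SM_Sed and 25.7 to 34.2 CPM in SM_ExT. All arms overlapped, and the interaction was 0.41 (95% interval 0.16 to 0.66). Of the most abundant members, Cryab, a small heat shock protein of the Z-disc, had 0.39 (95% interval 0.01 to 0.77), Hsp90ab1 0.08, Hspa8 0.17 and Hspb6 0.16.

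**Figure D4:**
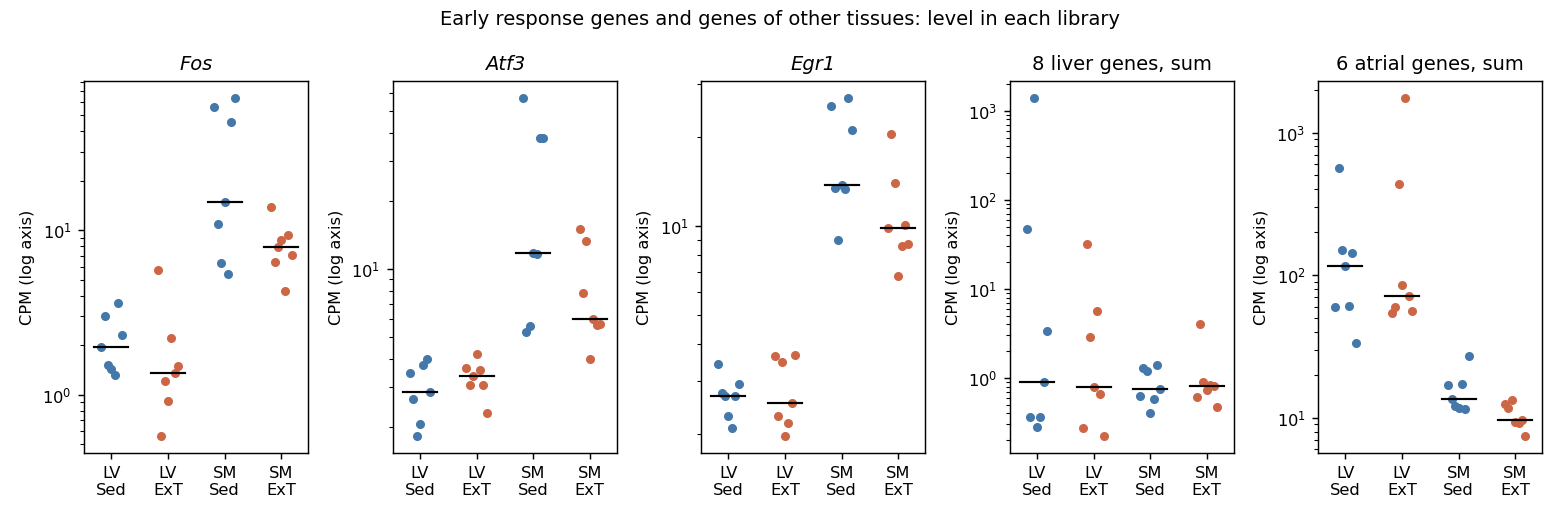
Level in CPM on a log axis of Fos, Atf3 and Egr1 and of the summed liver and atrial genes, 1 point per library, blue for sedentary and orange for trained rats, with black lines at group medians. The highest Fos and Atf3 values are those of sedentary muscles, at up to 63.9 and 56.9 CPM, and single LV libraries hold the highest liver sum of 1400 CPM and the highest atrial sum of 1750 CPM.

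Genes of contraction and cardiac load gave wide intervals where one tissue barely expresses them. All 15 genes linked to cardiac load had a fitted interaction above 0, beside 7936 of all 15049 genes. Nppa is among them, for which no fold is given. In SM 5 of the 15 were above 0 and 9 below. The interaction median was 0.26, with 2 higher and 0 lower at an unadjusted p under 0.05, beside 2.71% and 1.85% of all genes. The interaction was above 0 for 12 with library totals alone and for 9 with all 30 SM libraries. Without rats 18, 19 and 26, whose hearts had the highest atrial sums, it was above 0 for 11. The median was then 0.18 with 1 higher, beside 636 of 15230 genes in either direction. Leaving out 1 rat at a time gave medians of 0.18 to 0.37, with 1 higher without rat 18, 25, 26 or 32. Over all genes these 4 fits gave 721 of 15181, 504 of 15116, 597 of 15113 and 669 of 15125 in either direction. Without rat 31 the list had 4 higher, beside 681 of 15131. Among the most abundant, Acta1, the skeletal actin that hypertrophied hearts re-express, had 0.29, Actc1, the cardiac actin, 0.49, and the cardiac myosins Myh6 and Myh7 0.00 and 0.09, all with intervals that include 0. Nppa, the atrial natriuretic peptide, was at 17.3 to 300 CPM in LV_Sed and 30.7 to 905 CPM in LV_ExT. The highest values were those of rats 19 and 26, whose atrial sums were the highest in their groups. Nppa is itself part of that sum, so the match is partly built in. The median of Nppa was lower in the trained hearts (61.7 CPM against 83.3 CPM). SM held at most 2 counts of it per library, so no interaction is given. Interaction medians were 0.09 for 11 slow-fibre genes with 0 at an unadjusted p under 0.05, 0.28 for 12 fast-fibre genes with 1 lower, 0.03 for 19 genes of physiological heart growth with 0, and 0.02 for 33 genes of calcium handling with 1 higher. Beside these counts, 2.71% of all genes were higher and 1.85% lower. With all 30 SM libraries the slow-fibre median was -0.28, with 10 of 11 below 0, and 11 of 11 were above 0 in SM. Leaving out 1 rat gave slow-fibre medians of -0.07, without rat 26, to 0.19, and fast-fibre medians of -0.00, without rat 26, to 0.41. With library totals alone the heart growth and calcium medians were each -0.04.

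Vessel and matrix genes had interaction medians of -0.09 and -0.06 in the fit of the 14 rats. Of 23 genes of angiogenesis and endothelium, 4 had a higher level in trained SM at an unadjusted p under 0.05 and 1 in trained LV, beside 4.2% and 2.55% of all genes, with medians of 0.16 and 0.09 and no member lower in either. The SM count was 1 without rat 20, 27 or 32. Over all genes these fits gave 1095 of 15122, 1142 of 15135 and 1345 of 15125 in SM, in either direction. It was 9 without rat 29, beside 1675 of 15124. The interaction median was -0.09, with 0 higher and 1 lower, beside 2.71% and 1.85% of all genes. With library totals alone, 8 were higher in SM, beside 1631 of 15049 genes in either direction. The interaction median was then -0.15 with 2 lower, beside 580 of 15049. With all 30 SM libraries, 13 were higher and 1 lower in SM, beside 2330 of 14773 genes in either direction. The interaction median was then -0.11, with 0 in either direction. Vegfa, the main angiogenic growth factor, was at 211 to 302 CPM in LV_Sed, 247 to 335 CPM in LV_ExT, 351 to 479 CPM in SM_Sed and 351 to 470 CPM in SM_ExT, and its interaction was 0.12 (95% interval -0.16 to 0.39). Epas1, a hypoxia-inducible factor, had a difference of 0.26 in LV and 0.27 in SM and an interaction of -0.01 (95% interval -0.34 to 0.33). Sparcl1 and Pecam1, both known from endothelium, had interactions of -0.21 and -0.11. For 30 genes of collagens and matrix, 27 were below 0 in LV and 22 in SM, with medians of -0.14 and -0.09, and the interaction median was -0.06 with 0 in either direction. In LV, 1 was lower at an unadjusted p under 0.05, beside 1.55% of all genes, which became 11 with rats 17 to 32 only, with a median of -0.28, and 7 without rat 14, with -0.25. Over all genes these 2 fits gave 1212 of 15063 and 826 of 15119 in LV, in either direction. Leaving out rat 25 gave a LV median of -0.07 with 0 lower, beside 501 of 15116 genes in either direction. Col3a1 had an interaction of -0.13 and Col1a1 0.46 with an interval of -0.82 to 1.74. The summed fibroblast markers, which include collagens, ranged from 1763 to 2795 CPM in LV_Sed, 1382 to 3044 CPM in LV_ExT, 1932 to 8788 CPM in SM_Sed and 2042 to 4627 CPM in SM_ExT, with the highest SM_Sed value in rat 20. Its part in the collagen values was not tested.

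Cell cycle genes had the lowest interaction median of the lists described. Of 25 genes, 24 were below 0 in LV, with a median of -0.19 and 3 lower at an unadjusted p under 0.05, beside 1.55% of all genes. In SM the median was 0.03 with 0 in either direction. The interaction median was -0.32, with 0 higher and 2 lower, beside 2.71% and 1.85%, and it was -0.39 with library totals alone, -0.18 with all 30 SM libraries and -0.27 with rats 17 to 32 only. The LV count was 9 without rat 18, beside 797 of 15181 genes in either direction. It was 1 without rat 14, 25 or 26, beside 826 of 15119, 501 of 15116 and 510 of 15113. The interaction count was 6 without rat 20, beside 534 of 15122. It was 0 without rat 27 or 29, beside 525 of 15135 and 735 of 15124. Mki67, the proliferation antigen, chosen after its values were seen, was at 10.5 to 18 CPM in LV_Sed, 7.58 to 16.8 CPM in LV_ExT, 5.83 to 11.8 CPM in SM_Sed and 6.01 to 11.3 CPM in SM_ExT. The hearts' arms overlapped, and the interaction was -0.37 (95% interval -0.88 to 0.13). Of the most abundant members, Rrm1 and Pcna, both needed for DNA synthesis, had -0.00 and -0.05, the helicase subunit Mcm7 -0.23 and Tyms, thymidylate synthase, -0.28.

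Some genes had differences of the same sign in both tissues. At an unadjusted p under 0.05, 60 genes were shared, which is 9.71% of the 618 in LV, beside 9.42% of all genes in SM, and 4.23% of the 1418 in SM, beside 4.11% of all genes in LV. Of these 60, 53 had the same sign, but both tissues came from the same rats. The genes of the same sign described here were chosen after their values were seen. They include the glucocorticoid-linked gene Fkbp5 and the clock genes Per3 and Tef. Of 17 glucocorticoid and stress outputs, 3 were higher and 0 lower in LV at an unadjusted p under 0.05, beside 2.55% and 1.55% of all genes. In SM 1 was higher and 1 lower, beside 4.2% and 5.22%. Fkbp5, a glucocorticoid-induced chaperone of the steroid receptor, was at 7.21 to 14.9 CPM in LV_Sed, 8.48 to 17 CPM in LV_ExT, 14.5 to 25.9 CPM in SM_Sed and 10.1 to 46.4 CPM in SM_ExT. The arms overlapped, and the differences were 0.58 in LV and 0.78 in SM, with an interaction of -0.20 (95% interval -0.91 to 0.51). Per3, a period gene of the clock, had 0.53 and 0.46, with an interaction of 0.06, and the clock output factor Tef 0.53 and 0.33, with an interaction of 0.20. Got1, the cytosolic aspartate aminotransferase, had 0.21 and 0.31, with an interaction of -0.11, and passed in SM with all 30 SM libraries (0.43, edgeR adjusted p = 0.00558). Ndrg4, a cytoplasmic protein of heart and brain, had 0.25 and 0.71 and an interaction of -0.46 (95% interval -0.82 to -0.11), and its SM adjusted p with edgeR was 0.0661. Ndrg4 passed in SM with all 30 SM libraries (edgeR adjusted p = 0.0014), with library totals alone (edgeR adjusted p = 0.00645) and with DESeq2 (adjusted p = 0.000457). It also passed there without rat 28 and without rat 29.

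Over the 18 clock genes, 5 were higher and 1 lower in trained LV and 2 higher and 1 lower in trained SM at an unadjusted p under 0.05, beside 2.55% and 1.55% of all genes in LV and 4.2% and 5.22% in SM, and the interaction median was 0.13 with 0 in either direction. Without rats 16, 17, 19, 20 and 26 these counts were 0 in all 3 contrasts. Over all 15203 genes that fit gave 518 for the interaction, 451 in LV and 1004 in SM. LV had 3 higher without rat 18 or 26, beside 797 of 15181 and 510 of 15113 genes in either direction. It had 7 without rat 17 or 29, beside 469 of 15137 and 730 of 15124. In SM 0 were higher without rat 19, 20, 25, 26 or 31. Over all genes these fits gave 1496 of 15134, 1095 of 15122, 1151 of 15116, 1211 of 15113 and 1249 of 15131. The most abundant clock genes Clock, Bhlhe40 and Nr1d2 had interactions of 0.04, 0.28 and 0.04, and Dbp, an output factor chosen after its values were seen, had a difference of 0.64 in LV and 0.23 in SM. The time of day of sampling was not analysed here. For 17 glucocorticoid and stress outputs the interaction median was -0.01, for 25 regulators of muscle mass 0.05, for 26 antioxidant genes 0.07, for 17 secreted muscle factors 0.13 and for 15 genes of the neuromuscular junction 0.06, each with 0 at an unadjusted p under 0.05. Of these, the antioxidant median was -0.03 with all 30 SM libraries, and the muscle mass and neuromuscular medians were -0.01 and -0.02 with library totals alone. For 23 genes of sterol and fatty acid synthesis it was -0.06, with 2 higher and 0 lower, beside 2.71% and 1.85% of all genes. Without rats 16, 17, 19, 20 and 26 it was 0.04. In the edgeR fit of the 14 rats, no list held a gene that passed after adjustment in any of the 3 contrasts.

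**Figure D5:**
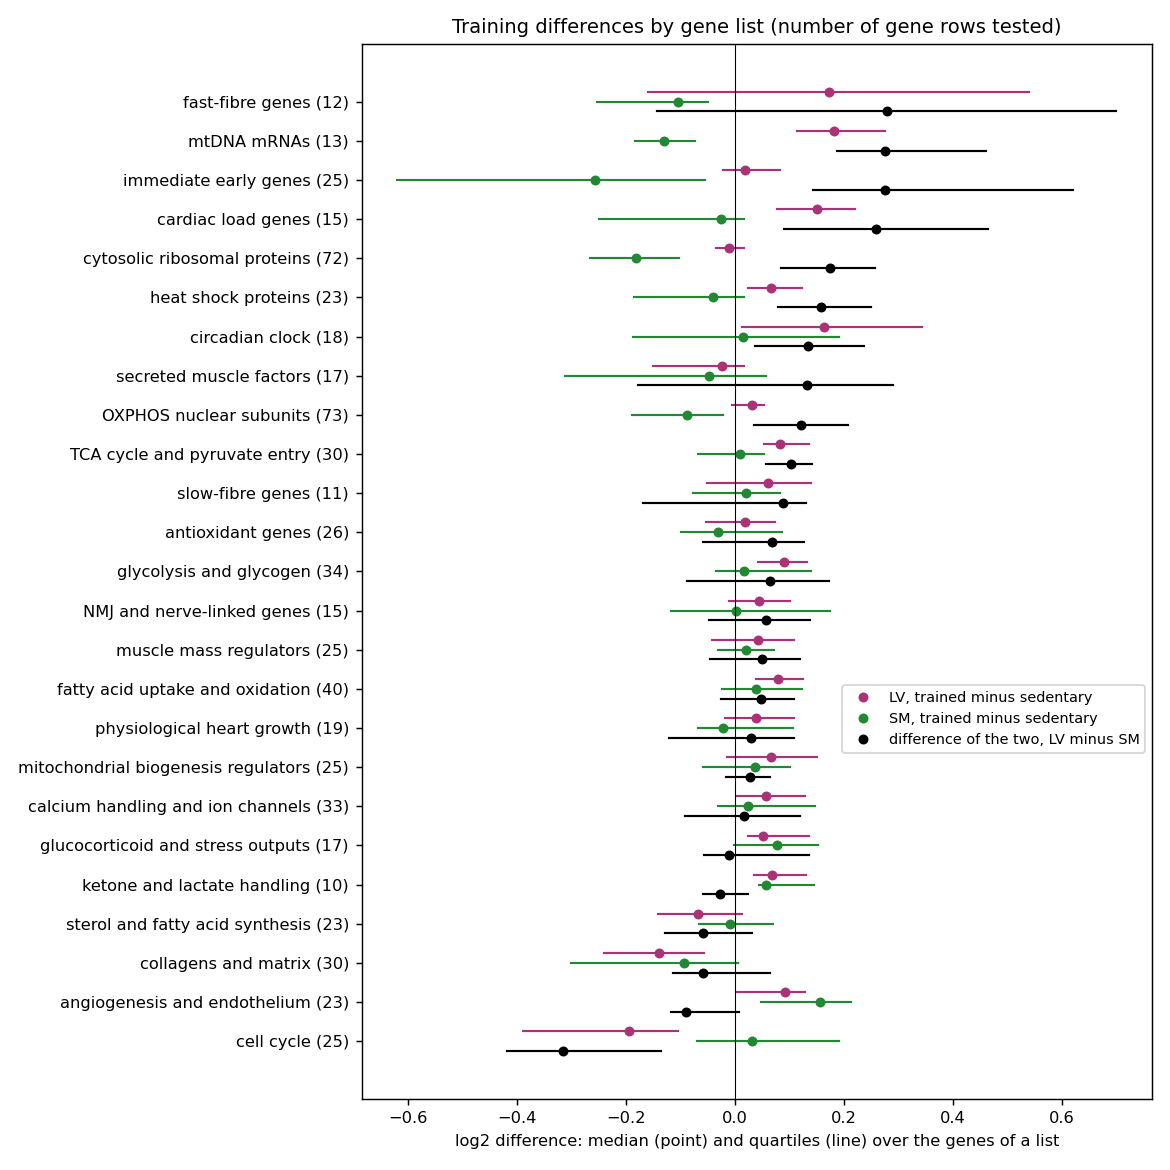
Median (point) and quartiles (line) of the log2 difference over the genes of each list, for trained minus sedentary in LV (purple) and SM (green) and for the interaction (black), with the number of gene rows tested in brackets. Ribosomal protein genes lie at -0.18 in SM and -0.01 in LV, immediate early genes at -0.26 and 0.02, and cell cycle genes at 0.03 and -0.19.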

How the data were processed

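Gene-level counts, whole numbers that the authors deposited as 1 table per tissue with 30560 Ensembl genes, were used as given. Per the submitters' processing notes, FastQC 0.74, cutadapt 4.6, STAR 2.7.11a, HTSeq and the build mRatBN7.2 were used. The annotation and strand setting are not given in the sources used here, so antisense and overlapping genes are uncertain. Groups and rat numbers came from the titles.

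The 28 libraries were fitted together in edgeR 4.0.16 (R 4.3.3) with TMM normalization, filterByExpr (15049 genes, 49.2%) and robust quasi-likelihood tests of 3 contrasts. A gene is called at a Benjamini-Hochberg adjusted p under 0.05. SEs and 95% intervals are Wald values from the same fit. CPM are TMM-scaled, and intervals and floors of single libraries cover counting error only. Per-rat differences used log2(CPM + 0.5) and two-sided exact permutation. DESeq2 1.42.0 and limma 3.58.1 were alternatives. Rats were separate animals. The main fit did not block on rat, so it treated a rat's LV and SM libraries as independent, and its p-values measure the spread between libraries within groups. The permutation test used each rat's own difference.

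The 14 rat numbers pair LV with SM, since the design text says that LV came from a subset of the animals. The deviations of a rat's 2 libraries from their group means had a median correlation of 0.0152 (range -0.0671 to 0.144), over 0.1 in 3 of 14 rats, against -0.00322 between different rats. No libraries were duplicates: the smallest chi-square per degree of freedom between libraries of a group was 15.0.

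The text names, for the interaction, the 8 symbol-bearing genes of smallest p in each direction whose mean reached 1 CPM, since none was called, genes called in LV or SM, and the 4 most abundant members of a list. Other genes are said to be chosen after their values were seen, and some genes are not reported here. The members and the 36 lists (729 symbols) were chosen with earlier results of these data known, and the 8 liver genes after seeing the libraries.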

Additional observations from a re-analysis of the deposited data

Results flagged for a closer look

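In each group of 7 libraries, a library was set apart when its gap to the nearest other exceeded 0.568 of the group's range, Dixon's 95% limit, which chance passes in about 1 group in 20. Of 387 combinations of a gene or gene sum with a group, 30 passed, in 16 libraries.

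The liver sum was 1400 CPM in LV_Sed rat 20 (next 47.1) and 32.2 CPM in LV_ExT rat 17 (next 5.58). The atrial sum was 560 CPM in LV_Sed rat 19 (next 151) and 1750 CPM in LV_ExT rat 26 (next 439). Nppa and Myl7, an atrial myosin light chain, are both part of the atrial sum. In the same libraries Nppa was at 300 CPM in rat 19. Myl7 was at 184 CPM in rat 19 and 600 CPM in rat 26, beside 12.8 CPM in the next trained heart. Leaving out these 4 rats and rat 16 left 0 interaction calls.

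In LV_Sed, rat 20 also had the highest Nt5e (44.1 CPM) and the lowest Tfb2m (27.3 CPM), and rat 29 the highest Tef (81.5 CPM) and Fkbp5 (14.9 CPM). In LV_ExT, rat 14 had the highest Fos (5.71 CPM) and Nr4a1 (3.37 CPM), rat 25 the highest Rplp0 (413 CPM) rat 18 the highest Dbp (20.3 CPM) and rat 17 the highest Hoxa7 (0.0798 CPM, or 6 counts).

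In SM_Sed, rat 20 had the lowest Gfra2 (2.78 CPM) and Cryab (406 CPM), rat 31 the highest Fbxw9 (0.933 CPM) and rat 19 the highest Hadhb (408 CPM). In SM_ExT, rat 27 had the highest Raver2 (6.75 CPM), Sparcl1 (213 CPM) and Pecam1 (116 CPM), and rat 17 the highest Col3a1 (1910 CPM) and Ttc21a (0.742 CPM). Rat 14 had the highest Mt-co3 (6150 CPM), Mt-atp6 (9240 CPM) and Lgr6 (10.2 CPM), rat 18 the highest Dbp (23.4 CPM) and rat 28 the highest Slc38a7 (11.6 CPM).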

How the results depend on the processing

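The interaction had 0 calls in 28 of 30 alternatives. It had 1 call without rats 16, 17 and 20, chosen after seeing the data (Hoxa7, at 0 to 8 counts per LV library), and 1 with DESeq2, and 0 whichever rat was left out. Unadjusted p under 0.05 counted 465 to 1147 genes for the interaction, 434 to 1302 in LV and 937 to 2330 in SM. The shares of all genes printed for the main fit therefore do not apply to list counts of an alternative fit. With the replicate block the interaction had 0 calls and 547 genes at an unadjusted p under 0.05. With limma on each rat's difference it had 0 calls and 632 such genes, so the block changed no call. The LV count of 0 became 2 with all 30 SM libraries, 1 without rats 16, 17 and 20, 6 with DESeq2, and 0 to 1 when 1 rat was left out (Tef without rat 29). The SM count of 1 became 97 with all 30 SM libraries (77 higher, 20 lower, 0 shared with the 14-rat fit), 4 with library totals alone, 4 with limma-voom, 21 with DESeq2, 0 without rats 19 and 26, 0 without rats 18, 19 and 26, 0 without rats 16, 17, 19, 20 and 26, and 0 to 6 when 1 rat was left out, 0 without rat 19, 25, 26, 27, 31 or 32 and 6 without rat 29. The difference in mitochondrial share, -0.963 points, became 0.776 without mitochondrial ribosomal RNA, 0.118 with rats 17 to 32 only, and -1.92 to -0.0533 when 1 rat was left out. The per-rat difference of Dmrt2, trained minus sedentary, was -0.14, opposite in sign to its fitted interaction, and reversed to 0.0291 with a pseudocount of 0.1. Where not shown by the smaller number of samples, the cause was not tested. Depth limits genes under 1 CPM, where intervals are widest.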

Other observations

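Genes whose arms did not overlap within a tissue numbered 8 of 15049 in LV (0.0532%) and 12 in SM, and those named here were chosen after their values were seen. In LV, Slc38a7, a lysosomal amino acid transporter, had a difference of 0.36 in heart and 0.03 in muscle, and Ipo13, a nuclear import receptor, 0.18 and 0.10. In SM, Asb5, an ankyrin repeat protein of muscle, was at 37.6 to 70.9 CPM in sedentary and 24.6 to 36.4 CPM in trained rats, a difference of -0.62, with -0.11 in LV, where it was at 1.22 to 2.27 CPM. Lgr6, a receptor for R-spondins, was at 2.56 to 5.41 CPM and 5.63 to 10.2 CPM in sedentary and trained muscles, a difference of 0.64, with 0.31 in LV. None of these 4 passed after adjustment in the edgeR fit of the 14 rats. Lgr6 passed in SM with all 30 SM libraries (0.76, edgeR adjusted p = 0.0014), and Asb5 passed in SM with limma-voom (adjusted p = 0.0131) and with DESeq2 (adjusted p = 0.0139). Piwil2, a protein of the piRNA pathway, was at 18.9 to 26.1 CPM in LV_Sed and 22.1 to 29.5 CPM in LV_ExT, and under 0.5 CPM in each muscle library.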
